A study of Mus musculus with 31 samples.

Results

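The genes of the colony stimulating factor receptors were followed across single lung cells sorted on a reporter of one of them. The 6 members Csf1r, Csf2ra, Csf2rb, Csf2rb2, Csf3r and Flt3 were taken by symbol, and all 6 were found among the 47069 genes of the deposited tables. The 31 cells came from the right lobes of lungs of adult B6 mice 10 weeks old that carried Csf1r-GFP, a green fluorescent protein reporter of Csf1r, 7 days after a sham thoracotomy in which the chest was opened. They had been sorted as CD45+, CSF1R-GFP+ and F4/80+, and Ly6G is named in the sort without a sign. All 31 cells belong to 1 group without another condition, and no animal is named, so they count as 1 sample. No test between groups was possible, and every interval and SD below is over cells and describes these cells.

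Colony stimulating factors are secreted proteins that keep myeloid cells alive and steer their differentiation through receptors on the cell surface. CSF1R and FLT3 are receptor tyrosine kinases: CSF1R binds CSF1 and interleukin 34 and sustains monocytes and macrophages, and FLT3 binds FLT3 ligand and is known for dendritic cell progenitors. The receptor of granulocyte-macrophage colony stimulating factor (GM-CSF), on which alveolar macrophages depend in the lung, joins the ligand-binding alpha chain CSF2RA to the beta chain CSF2RB. CSF2RB is also the signalling chain of the receptors of interleukin 3 and interleukin 5, and the mouse has a near copy, CSF2RB2, that serves interleukin 3. CSF3R pairs with itself to bind granulocyte colony stimulating factor and is known as a receptor of neutrophils.

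Levels are in FPKM, read fragments scaled to transcript length and library size, so they can be set side by side between genes, and a level of at least 1 FPKM counted as presence. The libraries held 120835 to 4059833 expected counts (median 1072993). The gene of lysozyme, Lyz2, a marker of monocytes and macrophages, was at 1000 FPKM or more in 20 cells, called Lyz2-high here. Lyz2 was at 1229 FPKM in the cell just inside this line and at 553 FPKM in the cell just outside it. In 10 other cells fewer than 80% of counts fell on nuclear protein-coding genes (32.7 to 61.4%, against 87.4 to 95.6% in the Lyz2-high cells), and they are called low-coding libraries. The remaining cell, in well F11, had 0 FPKM of Lyz2. All 8 pan-myeloid marker genes on the list (Lyz2, Tyrobp, Fcer1g, Cd68, Csf1r, Ptprc, Adgre1 and Itgam) were present in at least 50% of the Lyz2-high cells, and of 10 alveolar macrophage markers 9 were in none of the 31 cells. Of 10 classical monocyte markers 7 were present in at least 50% of the Lyz2-high cells, of 8 nonclassical monocyte markers 2 and of 10 interstitial macrophage markers 2. Classical monocyte markers were thus found more widely than interstitial macrophage markers in cells that the labels call macrophages, and nonclassical ones were not widespread. Cells with each receptor gene are counted with and without the low-coding libraries.

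Csf1r (ENSMUSG00000024621; GRCm38 chromosome 18, 61100598 to 61132149, plus strand) was present in all 20 Lyz2-high cells (exact Clopper-Pearson 95% interval 83.2 to 100%). Its lowest, median and highest levels there were 1.71, 103 and 855 FPKM, resting on 16 to 10375 reads per cell. The levels spread over 500-fold in cells that had all been sorted on the same reporter. Put in order, they left their widest step between 17.8 and 62.8 FPKM, a gap of 3.54-fold, and the next widest step was 3.05-fold. Below the gap lay 7 cells (wells A12, A10, B4, H4, H5, B7 and E7) with 16 to 100 reads of Csf1r, and above it 13 cells with 244 to 10375 reads. Library sizes overlapped, with 767318 to 4059833 counts in the 7 (median 2346311) and 521492 to 3183172 in the 13 (median 1479639). The part of depth in the gap was not tested. Below the gap 5 cells held the monocyte gene Ly6c2, and 5 above it did. Ccr2, a chemokine receptor gene of monocytes, was found in all 7 below and in 9 above, and Adgre1, the gene of F4/80, in 4 below and 11 above. C1qb, a complement gene of tissue macrophages, was in 2 below and 4 above. The 2 below, B4 and H5, had its highest levels, 10373 and 13306 FPKM. H5 held 8 of the 10 interstitial macrophage markers and 1 of the 10 classical monocyte markers.

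Outside the Lyz2-high cells Csf1r was scarce. It was present in 7 of the 10 low-coding libraries, in 6 of them at 1.70 to 10.2 FPKM on 2 to 14 reads. The library in well E5 stood apart with 273 FPKM on 333 reads. Cell F11 had 4 reads of Csf1r, or 0.99 FPKM, just under the line for presence, so that 27 of all 31 cells held it. In an annotated longer form of the Csf1r transcript, 873 bases of the 3′ UTR overlap exons of Hmgxb3 on the opposite strand, and the library kit does not mark strand. Hmgxb3 was present in only 2 cells, at up to 38.6 FPKM, and no Csf1r count was fractional in any of the 29 cells with a read.

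**Figure D1:**
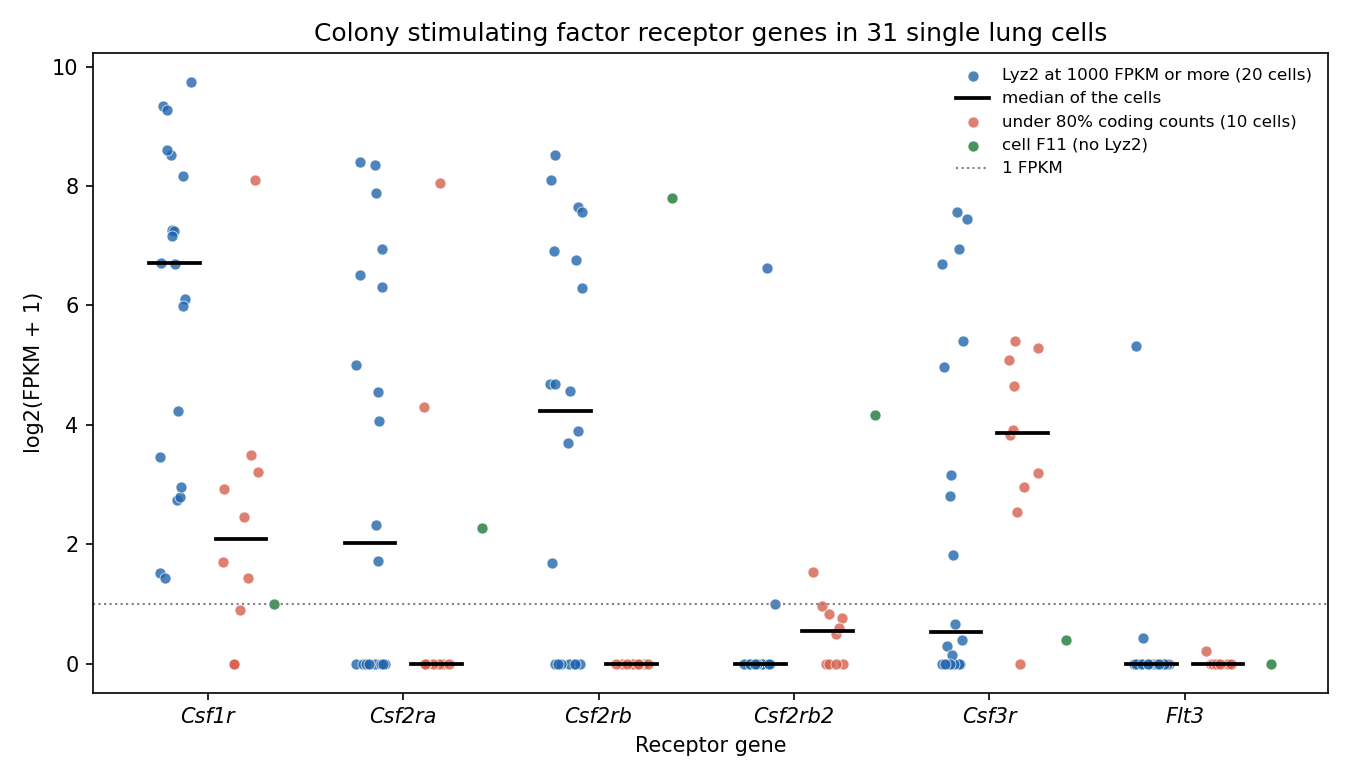
Level of each receptor gene in the 31 cells, as log2(FPKM + 1), with 1 point per cell and bars at the median of the Lyz2-high cells and of the low-coding libraries. Csf1r lies above the dotted line of 1 FPKM in all 20 Lyz2-high cells, Csf2rb is at 0 in all 10 low-coding libraries, and Csf3r lies above the line in 9 of those 10.

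Csf2ra (ENSMUSG00000059326; chromosome 19, 61223957 to 61228429, minus strand) was present in 11 of the 20 Lyz2-high cells (55.0%, exact interval 31.5 to 76.9%). Its lowest level there was 0, its median 3.14 and its highest 339 FPKM. The 11 cells spread widely, from 4 reads in well C6 to 926 reads in well D4, and the highest levels were 339 FPKM in B4, 326 in D4 and 234 in D6. In Csf1r these 3 cells differed: B4 lay below the gap at 5.65 FPKM, and D4 and D6 lay above it at 367 and 103 FPKM. Over all 31 cells it was found in 14 (45.2%). Of the low-coding libraries 2 held Csf2ra, C4 at 18.8 and F8 at 263 FPKM. Both also held the B cell gene Cd79a, at 410 and 637 FPKM, and whether the 2 genes came from 1 cell was not tested.

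Csf2rb (ENSMUSG00000071713; chromosome 15, 78325752 to 78353847, plus strand) was present in 13 of the 20 Lyz2-high cells (65.0%, exact interval 40.8 to 84.6%). Its levels there ran from 0 through a median of 18.3 to a highest value of 366 FPKM, in well G8. Where it was present it rested on 41 to 2294 reads, with the lowest call in H5 at 2.22 FPKM on 41 reads. In the other 7 cells it had no read at all. It was in 0 of the 10 low-coding libraries, which allows a share of up to 30.8% (exact interval), in contrast to Csf1r and Csf3r, which most of them held. Cell F11, without Lyz2, had 221 FPKM of Csf2rb on 1107 reads, which makes 14 of all 31 cells.

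A GM-CSF receptor needs the products of both genes, and both transcripts were found in 8 of the 20 Lyz2-high cells (A12, C6, C8, C11, D6, F10, G8 and H4). Another 3 cells held Csf2ra without Csf2rb (B4, C7 and D4), 5 held Csf2rb without Csf2ra (B7, B9, E12, F1 and H5), and 4 held neither (A6, A10, E7 and H8). Csf2rb was thus found in 72.7% of the 11 cells with Csf2ra and in 55.6% of the 9 without it. Over all 31 cells these shares were 64.3% of 14 and 29.4% of 17, since the low-coding libraries held no Csf2rb. The 2 levels were nearly unrelated over the 20 cells, with a Pearson r of 0.08 on the log2(FPKM + 1) scale, given as a description of cells from 1 sample. Of the 3 cells with the most Csf2ra only D6 held Csf2rb, at 108 FPKM, and B4 and D4 had no Csf2rb read. With presence counted at 5 FPKM both transcripts were in 6 of the 20 cells, and at 10 or more expected counts in 7. In C6 the pair rested on only 4 reads of Csf2ra, at 2.27 FPKM.

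**Figure D2:**
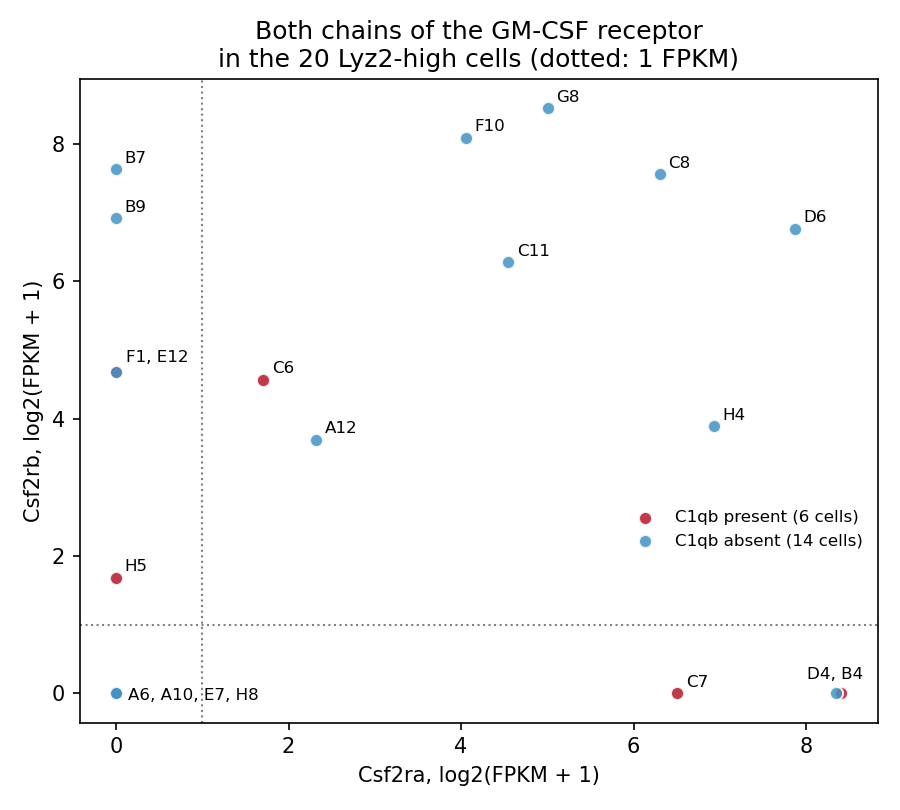
Csf2ra against Csf2rb in the 20 Lyz2-high cells, both as log2(FPKM + 1), with 1 point per cell, its well beside it and dotted lines at 1 FPKM; red points hold C1qb, and the red points of F1 and H8 are covered by those of E12 and of A6, A10 and E7. The 8 cells at upper right hold both chains and the 4 at the origin hold neither.

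Csf2rb2 (ENSMUSG00000071714; chromosome 15, 78282507 to 78305721, minus strand) lies next to Csf2rb, and the 2 coding sequences were 95.2% identical, with 125 differing bases and a longest identical run of 242 bases. Reads from the identical stretches cannot be assigned to either gene, and reads from divergent ones can, so a window of each kind is shown. The divergent window holds 16 differences in 90 bases, in capitals, and lies in exon 4 of the annotated transcript of both genes. On GRCm38 it is chr15:78338897-78338986 on the plus strand for Csf2rb and chr15:78294345-78294434 on the minus strand for Csf2rb2. Each is written 5′ to 3′ along the gene. The window in exon 8 is the same in both genes (chr15:78341658-78341747 and chr15:78291563-78291652).
Csf2rb, exon 4: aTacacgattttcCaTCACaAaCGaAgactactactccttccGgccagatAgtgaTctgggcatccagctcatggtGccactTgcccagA
Csf2rb2, exon 4: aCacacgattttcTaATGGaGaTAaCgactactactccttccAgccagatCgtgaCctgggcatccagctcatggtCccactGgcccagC
Both genes, exon 8: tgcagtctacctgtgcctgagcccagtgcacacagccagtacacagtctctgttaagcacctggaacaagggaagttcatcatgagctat

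Of the different stretches of 50 bases in the Csf2rb coding sequence, 26% also occurred in that of Csf2rb2. Stretches of 50 bases that Csf2rb shares with other genes covered 1475 of its 2688 coding bases. Values for the pair are uncertain to the extent that reads fell in shared stretches. Csf2rb2 was present in 4 of 31 cells (12.9%, exact interval 3.63 to 29.8%). The Lyz2-high cell A10 had 97.7 FPKM of Csf2rb2 on 1015 reads and no read of Csf2rb, and cell F11 had 16.9 FPKM of Csf2rb2 beside 221 FPKM of Csf2rb. The other 2 were at the edge of detection, H4 at 1 FPKM on 15.5 expected counts and the low-coding library D12 at 1.88 FPKM on 2.77. Csf2rb counts were whole in all 14 cells that had any, to within 0.005 of a count, and Csf2rb2 counts were fractional in 4 of 9.

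Csf3r (ENSMUSG00000028859; chromosome 4, 126024550 to 126044440, plus strand) was present in 9 of the 20 Lyz2-high cells (45%, exact interval 23.1 to 68.5%). Its lowest, median and highest levels there were 0, 0.455 and 189 FPKM. The highest were F1 at 189, A10 at 174, B9 at 122 and E7 at 102 FPKM, on 424 to 1792 expected counts, and the other 5 cells lay at 2.51 to 41.3 FPKM. A10 and E7 were among the 7 cells below the Csf1r gap, and F1 had the most Csf1r of all 31 cells.

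Csf3r and neutrophil genes were set side by side in the Lyz2-high cells. The neutrophil granule and inflammation genes S100a9, Retnlg, Ltf and Lcn2 were present in none of the 31 cells. Of the 10 neutrophil markers on the list, 5 were present in some of the 9 cells with Csf3r and 4 in some of the 11 without it. Their summed level ran from 0 to 1594 FPKM with Csf3r (median 3.38) and from 0 to 836 FPKM without it (median 3.37). The 1594 FPKM was S100a8, another neutrophil inflammation gene, in cell A10. Ly6g, the gene of the antigen named in the sort, was present in 3 of the 9 cells with Csf3r and in 4 of the 11 without it. Its highest level, 115 FPKM, was in E7, followed by A12 at 26.9, H4 at 24.5 and B9 at 20.5 FPKM. E7 and B9 were among the 4 cells with the most Csf3r, but F1 and A10, which had the most, held no Ly6g. In A12 and H4 Csf3r was under 1 FPKM, at 0.23 and 0.32. Counts of Ly6g were fractional in 3 of the 7 cells that had any. Cxcr2, a neutrophil chemokine receptor gene, was in 6 of the 9 and 4 of the 11, at up to 9.74 FPKM.

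The low-coding libraries supplied the other 9 of the 18 cells with Csf3r (58.1% of 31), at 4.78 to 41.2 FPKM, but on only 4.63 to 42.4 expected counts each. All 9 counts were fractional, as were 9 of those in Lyz2-high cells, and RSEM gives a fraction where a read is divided between genes. Of all stretches of 50 bases in annotated Csf3r transcripts, 11.4% also occurred in other genes. Most of these lie in the coding sequence (1104 of 2511 bases) and recur in the processed pseudogene AC105061.2. Summed neutrophil markers ran from 12.2 to 333 FPKM in the 10 low-coding libraries. Cxcr2 was in all 10, at 12.2 to 91.6 FPKM, S100a8 and Ly6g were in none, and no other listed neutrophil marker was in more than 2. The Cxcr2 counts looked at, in C4, D12, E5 and F8, were fractional too, at 11.9 to 55.9. Summed B cell markers ran from 3.69 to 653 FPKM in the same libraries. The B cell gene Ms4a1 and Pecam1, a listed marker of lung structural cells, were also in all 10. The part of shared sequence, of low depth and of neutrophil RNA in the 9 calls was not tested.

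Flt3 (ENSMUSG00000042817; chromosome 5, 147330741 to 147400489, minus strand) was present in 1 of 31 cells (3.23%, exact interval 0.0816 to 16.7%). This was the Lyz2-high cell B9, with 39.1 FPKM on 201 reads. H5 and the low-coding library F2 had 0.34 and 0.15 FPKM. Of dendritic cell markers it held 0 of 8 for type 1, 0 of 8 for plasmacytoid cells and 2 of 8 for type 2 or migratory cells, namely Dpp4 at 92.9 and Tnip3 at 1.99 FPKM. Of 10 classical monocyte markers it held 9. The other members in this cell were Csf1r at 153, Csf2rb at 120 and Csf3r at 122 FPKM.

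In the Lyz2-high cells the medians thus ran from Csf1r (103 FPKM) through Csf2rb (18.3), Csf2ra (3.14) and Csf3r (0.455) to Csf2rb2 and Flt3 (both 0). The ranges of all neighbours in this order overlapped. Each cell held 1 to 4 of the 6 genes: 1 gene in 2 cells, 2 in 5, 3 in 8 and 4 in 5, and none held 5 or 6. Over all 31 cells it was 1 gene in 5 cells, 2 in 10, 3 in 11 and 4 in 5. Csf1r was the only member in A6 and H8. The most frequent combination, in 4 cells (A12, C6, C8 and D6), was Csf1r with both GM-CSF receptor chains, and 3 more (C11, F10 and G8) had Csf3r as well. The other 13 cells fell into 9 combinations of 1 or 2 cells each, Csf1r by itself included.

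Csf3r and Csf2ra were found together in 4 cells. Csf3r was present in 36.4% of the 11 cells with Csf2ra and in 55.6% of the 9 without it, and their levels had a Pearson r of -0.41. Csf3r was in 46.2% of the 13 cells with Csf2rb and 42.9% of the 7 without it, with an r of 0.02. Over all 31 cells Csf3r was in 42.9% of the 14 cells with Csf2ra and 70.6% of the 17 without it, and the same shares held for Csf2rb, as 9 low-coding libraries had Csf3r. Csf1r and Csf2rb had an r of 0.30. These are 20 cells of 1 sample that share a sort and a capture, and the values describe them only. None of the 6 genes had an r with log2 of the cell's total counts outside -0.28 to 0.23.

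**Figure D3:**
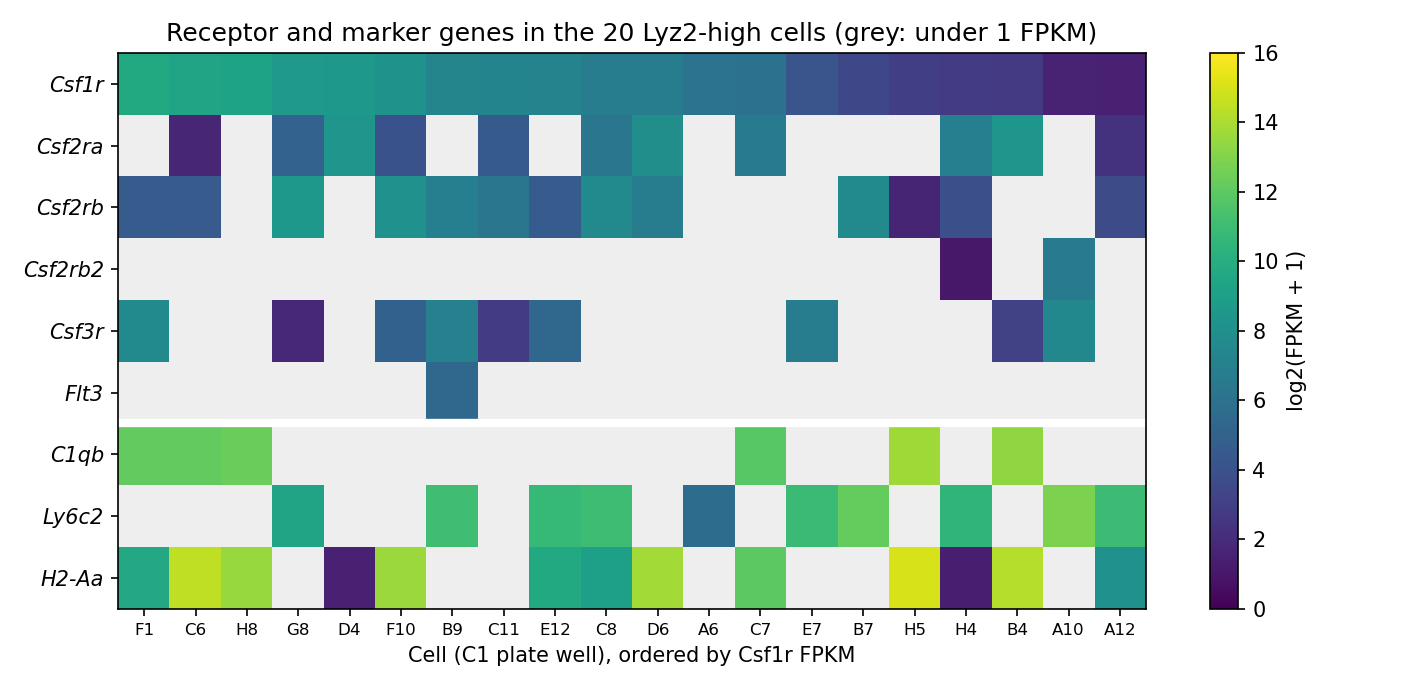
The 6 receptor genes and the marker genes C1qb, Ly6c2 and H2-Aa in the 20 Lyz2-high cells, with 1 column per cell in order of Csf1r, colour as log2(FPKM + 1) and grey for less than 1 FPKM. The row of Csf1r is filled in all 20 cells, while Csf2ra, Csf2rb and Csf3r fill 11, 13 and 9 in changing combinations.

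The 20 cells were then divided by 3 marker genes, the complement gene C1qb of tissue macrophages (present in 6 cells), the monocyte antigen gene Ly6c2 (10 cells) and the class II antigen presentation gene H2-Aa (13 cells). These divisions are not independent, as all 6 cells with C1qb lacked Ly6c2 and held H2-Aa. Counts of Ly6c2 were fractional in 8 of its 10 cells. The measure was the difference of mean log2(FPKM + 1), called at 1, which is 2-fold, and Csf2rb2 and Flt3 were left out because fewer than 3 of the cells held them. Csf2rb was lower with C1qb: it was present in 3 of 6 cells with C1qb at a median of 1.11 FPKM and in 10 of 14 without it at 50.9 FPKM. Its log2 mean was 1.82 ± 2.27 with C1qb (SD, n = 6) and 4.58 ± 3.33 without it (SD, n = 14), a difference of -2.75 (-1.75 with a pseudocount of 10). The levels overlapped, with up to 24.6 FPKM with C1qb and 0 to 366 without it. Csf1r had a median of 342 FPKM with C1qb and 103 without it, but its log2 difference of 0.97 was under the line, as were those of Csf2ra (-0.47) and Csf3r (-0.90). The members called were 1 of 4, beside 48.1% of the 5741 genes present in at least 3 of the cells. Csf1r came past the line with a pseudocount of 0.1 (1.01) or FPKM rescaled to equal sums (1.05), and Csf3r with a pseudocount of 0.1 (-1.86), so that 1 to 3 of 4 were called.

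Csf1r was lower with Ly6c2. Its median was 42.8 FPKM in the 10 cells with Ly6c2 and 218 FPKM in the 10 without it, and its log2 means were 4.93 ± 2.57 and 7.07 ± 2.53 (SD, n = 10 each), a difference of -2.14. Both groups held cells on either side of the Csf1r gap, and their ranges overlapped from 5.65 to 386 FPKM. Csf2ra was present in 4 cells with Ly6c2 and 7 without it (log2 difference -2.09), Csf2rb in 7 and 6 (1.08) and Csf3r in 5 and 4 (1.10). All 4 members tested were past the line, beside 43.4% of all genes tested, so differences of this size were common. With a pseudocount of 10, Csf2rb (0.65) and Csf3r (0.64) were under the line and 2 of 4 were called. With Ly6c2 counted at 50 FPKM or more, Csf2rb came to 1.85, and Csf2ra ran from -3.06 to -1.21 over the alternatives.

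With H2-Aa counted as present at 1 FPKM, the GM-CSF alpha chain stood higher, but not with H2-Aa counted at 50 FPKM. Csf2ra was present in 9 of 13 cells with H2-Aa, at a median of 15.7 FPKM, and in 2 of 7 without it, at a median of 0, a log2 difference of 2.67 (4.04 ± 3.48, SD, n = 13, against 1.36 ± 2.33, SD, n = 7). With the marker at 50 FPKM or more this difference was 0.62, under the line. The cells that changed sides were D4 and H4, with 326 and 122 FPKM of Csf2ra and H2-Aa at 1.82 FPKM on 2 reads and 1.5 FPKM on 5. Csf3r was in 4 of 13 and 5 of 7 cells, a difference of -2.08 (-3.35 to -1.02 over the alternatives). Csf1r (0.79) and Csf2rb (-0.69) were under the line, and Csf2rb changed sign with the marker at 50 FPKM (0.10). The members called were 2 of 4, beside 44.0% of all genes tested, or 1 of 4 with the marker at 50 FPKM. For each of the 7 differences past the line, the SD over cells on at least 1 side was larger than the difference. Median library sizes differed along with the markers: 2177839 counts with C1qb and 1433691 without it, 1233765 and 1812009 for Ly6c2, and 1837295 and 1079787 for H2-Aa, and their part in these differences was not tested.

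**Figure D4:**
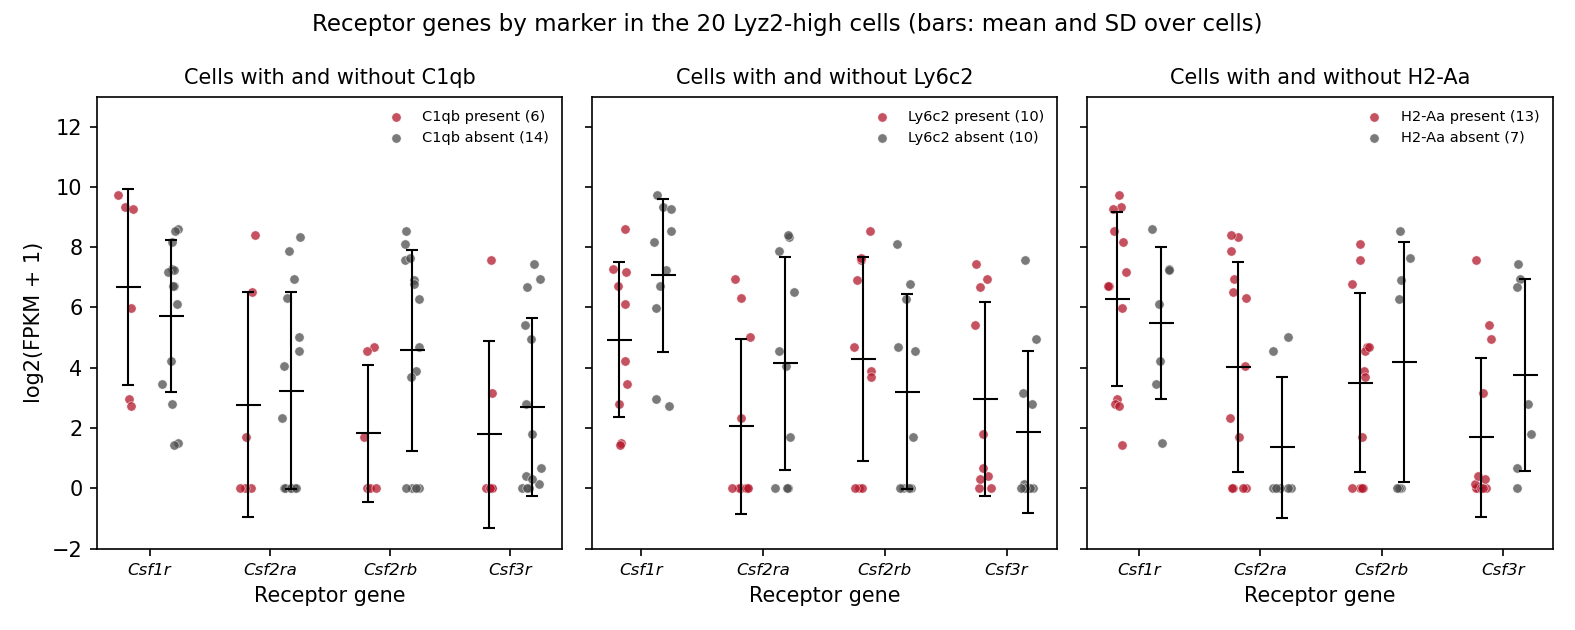
Csf1r, Csf2ra, Csf2rb and Csf3r as log2(FPKM + 1) in the 20 Lyz2-high cells with (red) and without (grey) C1qb, Ly6c2 and H2-Aa, with 1 point per cell and bars for the mean and SD over cells. The largest differences of means are Csf2rb with C1qb (-2.75), Csf2ra with H2-Aa (2.67, or 0.62 with H2-Aa counted at 50 FPKM or more) and Csf1r with Ly6c2 (-2.14), and the points overlap in every pair.

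The 6 ligand genes that were matched to an identifier were not found in the sorted cells, and Flt3l, the gene of FLT3 ligand, was not matched. Csf1, Il34, Csf2, Csf3, Il3 and Il5 were present in 0 of 31 cells, which allows a share of up to 11.2% each (exact interval). Of the alpha chains that share CSF2RB, that of the interleukin 3 receptor, Il3ra, was present in 1 cell, H5, at 103 FPKM beside only 2.22 FPKM of Csf2rb and no Csf2rb2. That of the interleukin 5 receptor, Il5ra, was in 2 Lyz2-high cells at up to 2.28 FPKM and in 6 low-coding libraries at up to 39.8 FPKM. Of the tyrosine kinases related to CSF1R and FLT3, Pdgfra and Pdgfrb were in none and Kit in 1 low-coding library, at 803 FPKM. Of 15 other cytokine receptor chains, 13 were present in some Lyz2-high cell. Ifngr1 was in 16 of the 20, Ifnar2 and Il10rb in 13 each and Il6ra in 12, all in more cells than Csf2ra (11), and Epor was in none of 31.

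Among 22 genes that act just below these receptors, all were present in some Lyz2-high cell and 7 in at least 50% of them. The adaptor gene Tyrobp was in all 20, at a median of 5838 FPKM, the kinase gene Lyn in 16, the transcription factor gene Stat3 in 14 and Jak1 in 12. Jak2, the kinase that is bound to CSF2RB, was in 7 of the 20, and Stat5b and Stat5a, the transcription factors that GM-CSF receptors activate, in 8 and 5. Among 10 negative regulators, the sheddase gene Adam17, whose product cuts CSF1R from the surface, was in 14 cells, the phosphatase gene Ptpn6 and the feedback inhibitor gene Socs3 in 12 each, and the ubiquitin ligase gene Cbl in 11. Cish, a feedback gene of STAT5, was in 2 cells and Socs1 in none of the 20. Among 11 known targets, the survival gene Mcl1 was in 19 cells, the kinase gene Pim1 in 16 and Bcl2a1b in 11. Of the transcription factors known to control the receptor genes, Cebpb was in all 20 cells and Spi1, which encodes PU.1, in 19. Cebpe and Gfi1 of granulocytes and Pparg of alveolar macrophages were in none of 31.

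The 8 cells with both GM-CSF receptor chains were set beside the other 12 for these genes, a division chosen after the values had been seen. The phosphatase gene Inpp5d was in 7 of 8 and 4 of 12 (log2 difference 3.04), the kinase subunit gene Pik3cd in 5 of 8 and 3 of 12 (2.95) and Adam17 in 7 of 8 and 7 of 12 (2.59). Id2 was in 1 of 8 and 8 of 12 (-4.19) and Stat3 in 5 of 8 and 9 of 12 (-2.04). The 2 cells with Cish were both among the 8, too few for the measure, while Stat5a was in 2 of 8 and 3 of 12 and Jak2 in 3 of 8 and 4 of 12. Of 20 signalling genes measured in this way 7 were higher by 2-fold or more and 2 lower, of 7 negative regulators 3 and 1, and of 8 targets 4 and 2, beside 22.9% of all 5741 genes higher and 40.4% past the line in either direction. The median differences of the 3 lists were 0.29, 0.37 and 0.40, against 0.07 over all genes. The 8 cells had a median of 2489 genes present and 1455144 counts, against 2318.5 genes and 1591648 counts in the 12. The part of this in the differences was not tested.

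The genes whose levels followed each receptor most closely over the 20 Lyz2-high cells were found by Pearson r among about 1430 genes present in at least 50% of them. For Csf2ra these included Inpp5d (r = 0.68) and the myosin gene Myo1g (0.61). For Csf1r they were Tmed5 (0.72), Fgd4 (0.68) and Sec62 (0.67), for Csf2rb the histone gene H2afj (0.78), the calcium channel gene Cacna1e (0.75) and Qrich1 (0.72), and for Csf3r Cggbp1 (0.65), Ninj1 (0.64) and Gm13736 (0.57). The values were picked as the highest of many and are given with no test.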

How the data were processed

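Transcriptomes of 31 single cells were read from 2 deposited tables. Per the labels' protocols, a Fluidigm C1 system captured the cells, SMARTer chemistry amplified polyadenylated RNA and Nextera XT, an unstranded kit, made the libraries. The submitters' processing notes name RSEM, Trimmomatic, CASAVA 1.8 and the build GRCm38. Tool settings and the annotation are not given in the sources. Expected counts from RSEM were deposited by the authors, which need not be whole, along with FPKM values scaled to length and library size. Of 75 count columns, 31 matched the samples and 44 were not used. Reads carry no molecular identifiers, so intervals and zero limits cover counting error over cells only.

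A gene was present at FPKM 1 or more. Differences are of mean log2(FPKM + 1), so they understate changes of low genes, over genes present in at least 3 cells. On simulated Poisson counts of 5310 genes in 6 against 14 cells, which lack the spread between real cells, 200 of 200 genes changed 4-fold were called. The members and lists were chosen with earlier results of these data known. Named genes are the members, the sort and marker genes, and the list genes present in none or in most cells (up to 4 a list). The 3 genes most like each member present in at least 5 Lyz2-high cells are named as well. Cish, Stat5a, Stat5b, Jak2, Ccr2, Cd79a, Il5ra, Hmgxb3, Id2, Pik3cd, Socs1, Ms4a1, Pecam1 and AC105061.2 were chosen after their values were seen. The result of 1 gene that this rule names is not reported here. Flt3l was not matched to an identifier. Sequences, exon overlaps and shared stretches of 50 bases come from GENCODE M21 transcripts on GRCm38, with 1-based coordinates; the coding sequences were aligned with Biopython 1.88. Python 3.11.15, pandas 2.3.3, numpy 2.4.6 and SciPy 1.17.1 were used. Alternatives were other lines for presence and for Lyz2, counts in place of FPKM, thinning to the shallowest cell, other pseudocounts, rescaled FPKM and other gene filters.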

Additional observations from a re-analysis of the deposited data

How the results depend on the processing

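Of 270 values computed under alternatives, 241 moved by less than the spread or interval over cells, which is wide here, 29 moved by more, and 0 of the differences past the 2-fold line changed sign. Of 48 recomputed marker differences, 6 changed side of the line (Csf1r under 2 settings and Csf3r by C1qb, Csf2rb and Csf3r by Ly6c2, Csf2ra by H2-Aa) and 1, not past the line, changed sign. The median of Csf1r over all cells went from 10.2 to 103 FPKM without the low-coding libraries. The line for presence mattered most. At 50 FPKM, shares of all 31 cells and of the 20 Lyz2-high cells were 45.2% and 65.0% for Csf1r, 22.6% and 30% for Csf2ra, 25.8% and 35.0% for Csf2rb, 12.9% and 20% for Csf3r, and 0% for Flt3, and Csf2rb2 was in 3.23% of 31. Among libraries with at least 80% of counts on coding genes, Csf2rb was in 66.7%. At 5 FPKM, Csf2rb2 was found with Csf1r or with Csf2ra in 0 cells of either set and with Csf2rb in 0 of the 20. With a pseudocount of 10 the background share past the 2-fold line was 25.2% for C1qb, 21.1% for Ly6c2 and 21% for H2-Aa, and with no filter on genes 8.05%, 6.45% and 6.65%, since genes seen in few cells then count. Of the 3 genes most like each member, Spearman's rho kept 1 for Csf1r, 1 for Csf2ra and 1 for Csf3r, a pseudocount of 10 kept 1 for Csf2ra, and counting genes in at least 3 cells kept 0 for Csf2ra and 0 for Csf3r. Thinned to 120834 counts per cell, the expected number of Lyz2-high cells with a read was 18.9 of 20 for Csf1r, 9.90 of 11 for Csf2ra, 12.7 of 13 for Csf2rb and 8.93 of 13 for Csf3r. Over all cells it was 4.90 of 9 for Csf2rb2 and 1.22 of 3 for Flt3, so these and Csf3r depend more on depth. No paired analysis was possible because there is 1 group of cells with no replicate of it.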
